A study of Sus scrofa with 9 samples.

Results

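The genes described here are those with their lowest transcript level in the pigs fed a high-fat diet for 8 weeks. They were chosen by their FPKM values, the level of a gene in fragments already divided by gene length and library size. Each H8 library had to lie below each NC and each H24 library, the H8 mean had to be at most 0.5 times the NC mean and at most 0.5 times the H24 mean, and the NC mean had to be at least 1. Of the 21357 rows of the gene table, 10848 reached that NC level, 83 met the conditions on values, and 7 of these were set aside by gene name (PLIN1, LIPE, CIDEC, GPX3 and 3 SLC transporters). The remaining 76 genes, 0.701% of the rows with an NC mean of at least 1, are called the H8-low genes. Because the H8 values chose them, their levels in H8 against the other groups are a description, with no test.

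The study profiled RNA from the distal abdominal aorta of Tibetan minipigs, all male, with 3 libraries in each of 3 groups. NC pigs ate a normal diet for 24 weeks and are labelled normal controls. H8 pigs ate a high-fat diet for 8 weeks and are labelled hypercholesterolemic, and H24 pigs ate it for 24 weeks and are labelled atherosclerotic. The study's methods describe the diet of the 24-week model as high in fat with added cholesterol. No group carries a transgene, and the animals described in the study's methods were a few months old when the diets began. No age is given for the H8 pigs in the sources used here. NC and H24 shared the time of sampling and H8 did not, so for H8 the length of the diet cannot be told apart from the age of the pig or the date of sampling. How the H8 pigs were selected and the hour of tissue collection are not given in the sources used here.

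The aortic wall holds smooth muscle cells in its media, endothelium on its inner surface, and fibroblasts, nerves, lymphatics and fat around it. In bulk RNA from such a wall, fewer cells of a type and less RNA per cell cannot be told apart. A set of genes chosen by its profile need not form a pathway, and the H8-low genes come from many. They include proteins of the lectin pathway of complement, which recognizes sugars on microbes and dying cells. Transcription factors of the GATA, nuclear receptor and zinc finger families are among them. So are tripartite-motif (TRIM) ubiquitin ligases, precursors of microRNAs (miRNAs) and small nucleolar RNAs, and enzymes of glycan and lipid metabolism.

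Library totals ranged from 44094263 to 75787978 estimated counts. Pearson correlations of log2 counts, scaled to library size, between libraries of a group were 0.986 to 0.988 in NC, 0.979 to 0.987 in H8 and 0.943 to 0.980 in H24. Smooth muscle markers, which define the media, were abundant, with a summed FPKM of 12260.0 to 14618.2 in NC and 10844.1 to 14392.5 in H8, and skeletal muscle markers summed to less than 2 in each library. H24 replicate 3 stood apart, with a smooth muscle sum of 1808.0 and a macrophage marker sum of 2072.8, against 26.9 to 37.2 for macrophage markers in NC. H8 replicate 2 had the smallest TMM scaling factor, 0.862, so the bulk of its genes read lower in FPKM than in the other libraries. Its summed FPKM, 296317.7, was not low and was exceeded only by that of H24 replicate 3, 311587.3. TMM (trimmed mean of M values) is a scaling that sets the bulk of genes equal between libraries.

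That scaling mattered for which genes were taken. H8 replicate 2 was the lowest H8 library for 51 of the 76 genes. The H8-low genes lay at a median log2 ratio to the NC mean of −1.36 in H8 replicate 1, −1.86 in replicate 2 and −1.26 in replicate 3. After TMM scaling of the FPKM values, 42 of the 76 still met all conditions, and without H8 replicate 2 the rule took 82 genes, 46 of the 76 among them. The opposite rule, with H8 highest, took 47 genes on FPKM and 67 after TMM scaling, so the direction with more genes changed with the scaling: the lower side made up 61.8% of both on FPKM and 38.5% after scaling. With the minimum of 1 set on the H8 mean for the opposite rule, a variant chosen after seeing the data, it took 66 and 93 genes, and the lower side made up 53.5% and 31.1%. Of the 16 genes whose H8 mean was at most a 3rd of both other means, 12 met the rule after scaling. The 4 that did not were CCDC154, MIR27B, MORN4 and ENSSSCG00000037808.

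**Figure D1:**
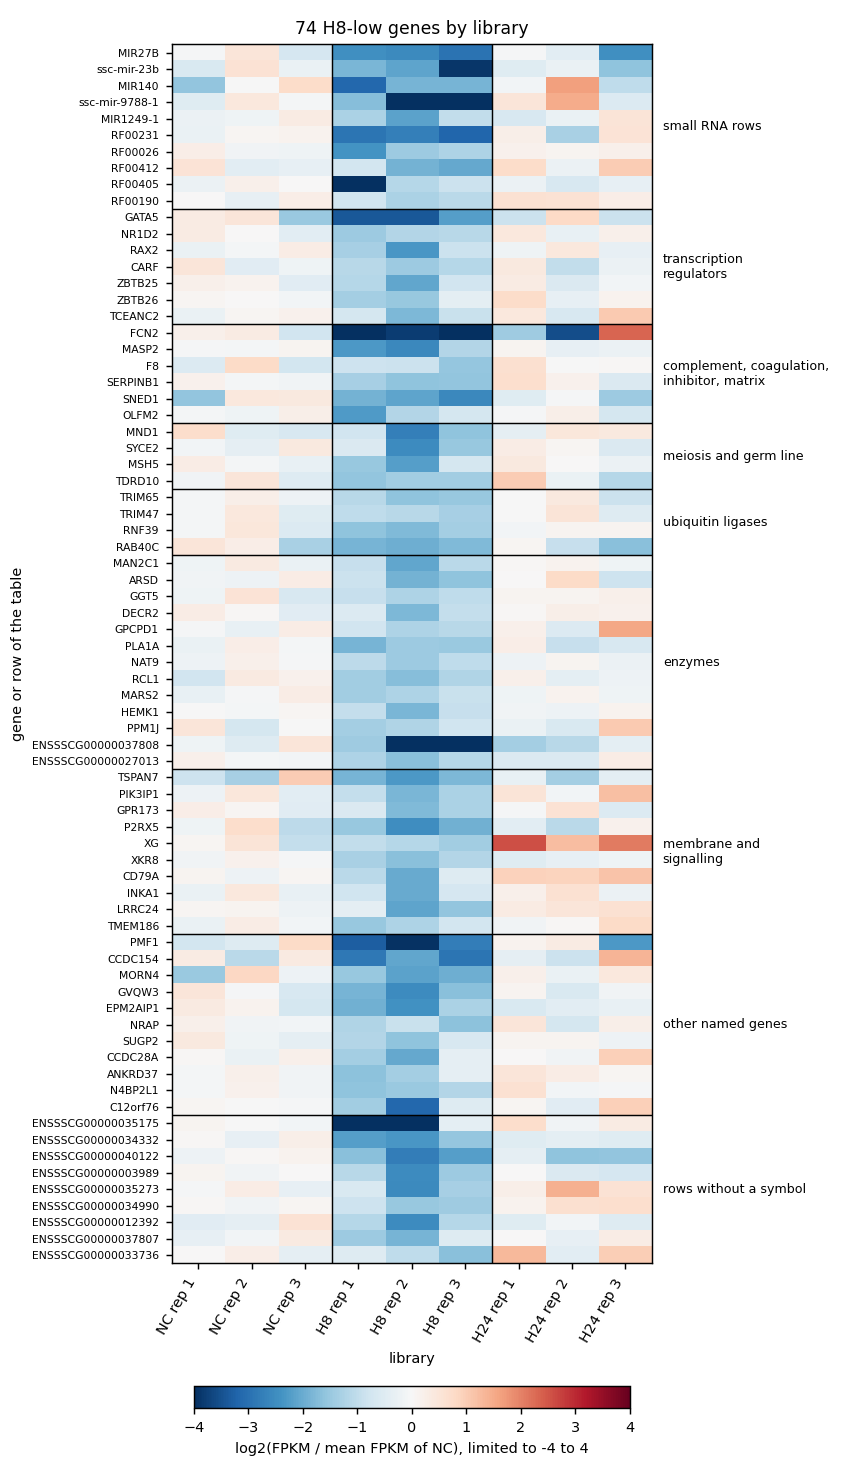
Heat map of 74 of the 76 H8-low genes (vertical axis, grouped by the known role of the product) in the 9 libraries (horizontal axis). Colour gives log2 of the FPKM over the NC mean, limited to −4 and 4. H8 replicate 2 holds the lowest H8 value for 51 of the 76 genes, and FCN2, PMF1 and GATA5 are among the darkest rows.

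The depth of the H8 trough was mostly modest. The median gene was 2.55-fold lower in H8 than in NC and 2.68-fold lower than in H24. Only 7 genes were at most a 4th of both other means, 1 gene, FCN2, was at most a 10th, and 29 genes lay close to the limit, with the larger of both ratios above 0.45. The lowest value outside H8 was at a median 1.24 times the highest H8 value, and for 32 genes it was less than 1.2 times. Just inside the limit of 0.5 lay DECR2 (0.498), ANKRD37 (0.498) and ZBTB26 (0.499). Just outside it lay SMUG1 (0.501), ZNF688 (0.501) and DCAF17 (0.501), so nothing in the values separates the set from the genes beside it. At the low end, 33 genes had an H8 mean below 1 FPKM, and 11 had fewer than 30 counts in each H8 library.

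FCN2 had the deepest trough of the set. It encodes ficolin-2, a soluble pattern recognition protein of the lectin pathway of complement, on chromosome 1 (274106006 to 274111977, plus strand, coordinates as in the gene table). Its FPKM was 4.14, 4.55 and 2.12 in NC, 0.151, 0.260 and 0.101 in H8, and 1.35, 0.310 and 18.2 in H24. H8 was 21.1-fold below NC, but the H24 mean of 6.61 rested on replicate 3, the library with the high macrophage sum, and H24 replicate 2 lay only just above the highest H8 library. MASP2 encodes the serine protease that ficolins activate. It read 1.60, 1.55 and 1.77 in NC, 0.334, 0.274 and 0.729 in H8, and 1.78, 1.298 and 1.40 in H24. Its trough was 3.67-fold below NC, and unlike FCN2 it had similar values in the 3 H24 libraries. The end of MASP2 overlaps that of TARDBP on the other strand by 3075 bp, and TARDBP had a mean of 14.0 FPKM in NC, 7.17 in H8 and 10.1 in H24. The share of MASP2 fragments that came from TARDBP was not tested.

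Other secreted or inhibitor genes had shallower troughs. SERPINB1, an inhibitor of neutrophil proteases, read 10.9, 9.16 and 8.71 in NC, 3.80, 3.14 and 3.20 in H8, and 15.2, 10.8 and 6.46 in H24. Its H8 libraries differed little from each other and averaged 2.84-fold below NC. F8, coagulation factor VIII, which endothelial cells make, read 4.17, 10.3 and 3.65 in NC, 3.396, 3.36 and 2.07 in H8, and 9.31, 5.99 and 6.26 in H24. For F8 the lowest NC library was close to the highest H8 library, and the gene did not meet the rule after TMM scaling. The matrix protein SNED1 and the olfactomedin OLFM2 were 4.48-fold and 2.37-fold below NC. For SNED1, NC replicate 1 read 1.911, near H8 replicate 1 at 1.555, while NC replicates 2 and 3 read 7.79 and 7.57. OLFM2 read 6.61 in H8 replicate 3 and 6.65 in H24 replicate 3. After TMM scaling SNED1 met the rule and OLFM2 did not.

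**Figure D2:**
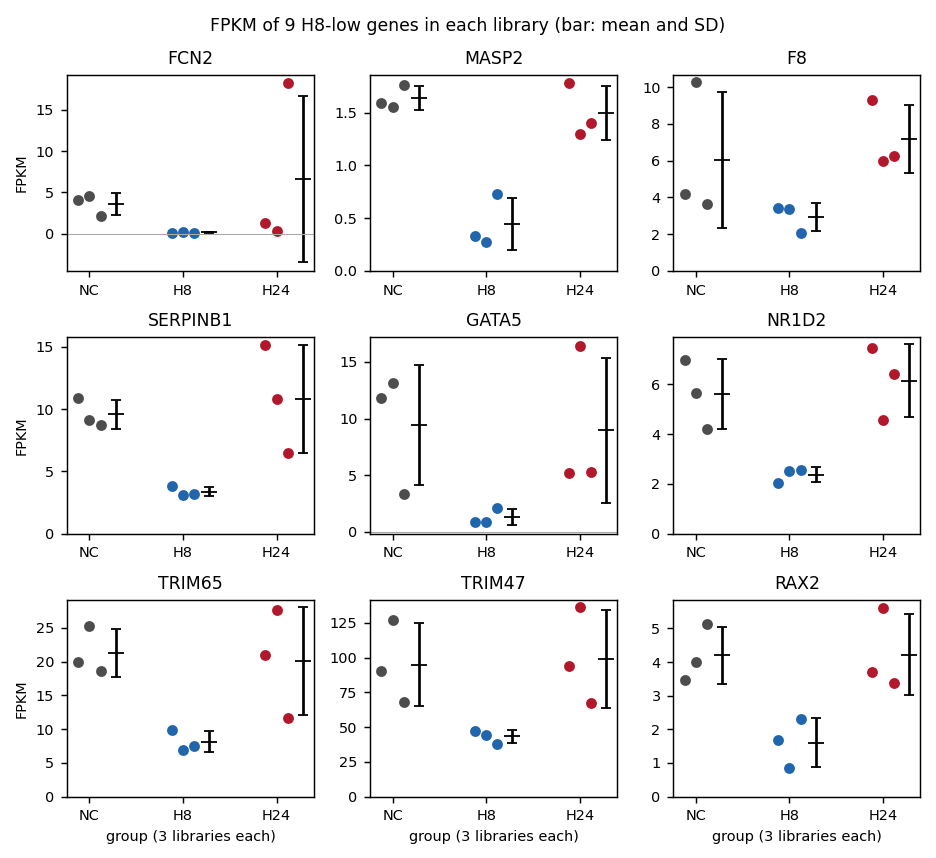
FPKM (vertical axis, linear, a separate scale in each panel) of 9 H8-low genes in each library of the 3 groups (horizontal axis), with the mean and SD of 3 libraries as a bar beside the points. The blue H8 points lie below all others in each panel because the genes were chosen so, while the H24 points of FCN2 run from 0.310 to 18.2.

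Among transcription factors, GATA5 had the deepest trough. It is a zinc finger factor of heart and vessel development, on chromosome 17 (61825698 to 61834267, minus strand). It read 11.9, 13.1 and 3.35 FPKM in NC, 0.898, 0.897 and 2.07 in H8, and 5.22, 16.4 and 5.25 in H24, so that H8 was 7.33-fold below NC. NC replicate 3 was nearer to the H8 values than to the other NC libraries. NR1D2, which encodes the clock repressor REV-ERB-beta, read 6.98, 5.65 and 4.19 in NC, 2.03, 2.503 and 2.57 in H8, and 7.47, 4.57 and 6.403 in H24. RAX2, a homeobox factor known from the retina, read 3.48, 3.99 and 5.14 in NC, 1.68, 0.838 and 2.30 in H8, and 3.69, 5.60 and 3.36 in H24. The other regulators, CARF, ZBTB25, ZBTB26 and TCEANC2, were at most 2.34-fold below NC. Of the 7 regulators 4 met the rule after TMM scaling.

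NR1D2 belongs to the circadian clock, a loop in which CLOCK and ARNTL drive the PER, CRY and REV-ERB repressors and the output factors DBP, TEF and HLF. The other genes of a clock list were read in the edgeR quasi-likelihood fit over all genes, where a call needed a log2 fold change beyond 1 and an unadjusted p under 0.05. Of the 17 tested clock genes besides NR1D2, 2 were called lower in H8 than in NC, where 2.27% of all genes were, and 1 was called higher, where 5.11% of all were. TEF read 13.0, 8.85 and 7.63 FPKM in NC and 4.99, 3.39 and 4.45 in H8 (log2 fold change −1.06, SE 0.28, unadjusted p = 0.00599, adjusted p = 0.206 by edgeR). PER3 read 8.86, 5.69 and 3.01 in NC and 3.79, 1.67 and 2.20 in H8, with overlapping groups (log2 fold change −1.07, adjusted p = 0.309 by edgeR). NFIL3, a repressor that acts on the same promoter elements as TEF, went the other way, from 9.65, 15.1 and 47.9 in NC to 56.7, 106.5 and 40.3 in H8 (log2 fold change 1.67, SE 0.65, adjusted p = 0.302 by edgeR).

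In H24 against H8, PER3, NR1D1, CIART and BHLHE41 were called higher and NFIL3 lower among the same 17 genes, beside 7.22% of all genes higher and 3.05% lower. With an adjusted p under 0.05 edgeR called none of the 17 in either comparison. In H8 against NC 5 of the 17 had an unadjusted p under 0.05, beside 2124 of all 14336 genes tested. In H24 against H8 6 did, beside 2029 of all 14788. CLOCK, at a mean of 2.83 FPKM in NC and 3.01 in H8, was not called. Counts for all genes moved with scaling: with library size alone, edgeR called 576 genes higher and 459 lower in H8 than in NC, against 733 and 326 with TMM, and 1447 higher and 290 lower in H24 than in H8, against 1068 and 451. limma on log2(FPKM + 0.1) gave 454 higher and 505 lower in H8 than in NC.

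**Figure D3:**
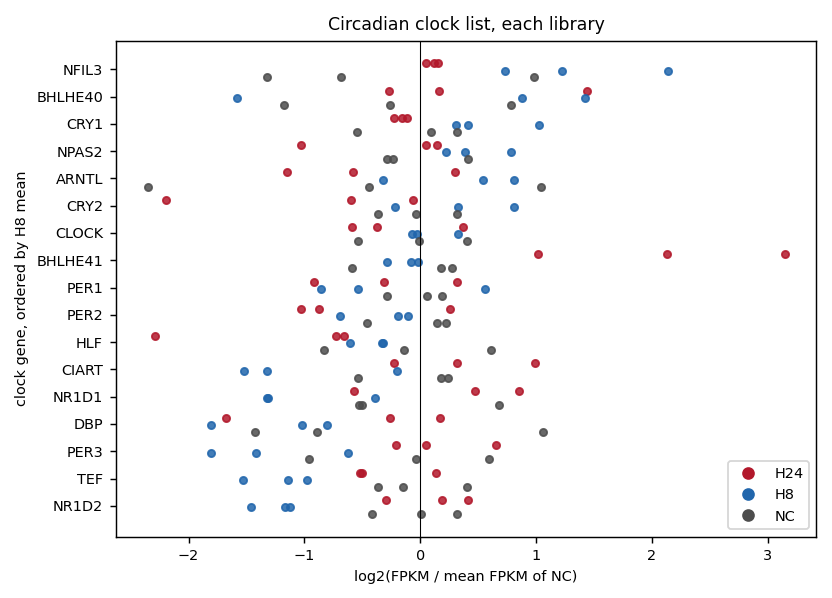
Log2 of FPKM over the NC mean (horizontal axis) for the 17 clock genes with an NC mean of at least 1 (vertical axis, ordered by the H8 mean), with each library as a point. NR1D2 and TEF sit at the bottom with H8 points apart from the rest, and NFIL3 at the top with an H8 mean of 67.8 FPKM against 24.2 in NC.

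Ubiquitin ligases included the most abundant H8-low gene. TRIM47 read 90.2, 126.9 and 67.9 FPKM in NC, 47.5, 44.5 and 37.8 in H8, and 93.9, 136.4 and 67.0 in H24, a 2.20-fold trough against NC. TRIM65, 7684 bp away on chromosome 12 and on the same strand, read 19.95, 25.2 and 18.6 in NC, 9.87, 6.96 and 7.46 in H8, and 20.9, 27.6 and 11.7 in H24. The neighbours had the same order of libraries in both NC and H24, highest in replicate 2. RNF39 and RAB40C, a ring finger protein and a substrate receptor of ubiquitin ligases, were 2.95-fold and 3.62-fold below NC. All 4 met the rule after TMM scaling and also without H8 replicate 2.

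Enzymes formed the largest group, with 15 genes, and a shallow one, at a median of 2.27-fold below NC. MAN2C1, a cytosolic mannosidase of free glycans, read 26.2, 37.2 and 24.2 FPKM in NC, 15.5, 6.96 and 14.0 in H8, and 30.2, 32.1 and 25.9 in H24. ARSD, a sulfatase gene, read 19.1, 18.5 and 26.3 in NC, 11.8, 5.73 and 7.02 in H8, and 21.7, 36.5 and 11.9 in H24, where the lowest library was barely above H8 replicate 1. DECR2, a peroxisomal reductase of unsaturated fatty acids, was 2.01-fold below NC. The rest, among them GGT5 of glutathione and leukotriene metabolism, the phospholipase PLA1A and the mitochondrial methionyl-tRNA synthetase MARS2, lay between 2.01-fold and 6.57-fold below NC. Only 2 of the 15 enzymes met the rule after TMM scaling, and 6 without H8 replicate 2. One enzyme row without a symbol, ENSSSCG00000037808, described by RefSeq as like glutathione S-transferase Mu 1, read 9.35, 7.44 and 14.8 in NC, 3.97, 0.339 and 0.504 in H8, and 4.06, 4.88 and 8.07 in H24. Genes of that family are near-identical copies, so the assignment of its fragments is uncertain.

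Membrane and signalling genes numbered 10, at 2.08-fold to 3.94-fold below NC, and included the purinergic receptor P2RX5, the orphan receptor GPR173 and the phospholipid scramblase XKR8. TSPAN7, a tetraspanin, read 8.28, 5.77 and 29.7 FPKM in NC, 4.01, 2.94 and 4.16 in H8, and 11.9, 5.67 and 11.2 in H24. PIK3IP1, an inhibitor of PI3 kinase, read 12.6, 19.98 and 10.9 in NC, 7.45, 4.11 and 6.03 in H8, and 20.6, 13.6 and 33.3 in H24. Both had 1 library far above the others of its group. CD79A, a part of the B cell receptor, read 5.46, 4.44 and 5.40 in NC, 2.42, 1.25 and 3.59 in H8, and 9.67, 9.38 and 11.3 in H24. Other defining B cell genes were near 0, with mean FPKM below 0.1 for MS4A1 and PAX5 and below 0.3 for CD79B in NC and H8. Of the 3 other B and plasma cell markers tested in H8 against NC, TNFRSF17 was called lower and none higher, and the sum of the list was 7.24 to 7.77 in NC, 2.35 to 4.65 in H8 and 10.5 to 15.3 in H24, mostly CD79A. CD79A overlaps ARHGEF1 on the same strand by 19180 bp, and ARHGEF1 had means of 10.9, 13.2 and 13.2 FPKM in NC, H8 and H24.

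A second gene with a same-strand overlap had the second deepest trough of all. PMF1, a kinetochore protein, lies on chromosome 4 (93807706 to 93836820, minus strand) and shares 26314 of its 29115 bp with SLC25A44, a mitochondrial carrier of branched-chain amino acids. PMF1 read 2.98, 3.51 and 8.46 FPKM in NC, 0.512, 0.322 and 0.728 in H8, and 5.52, 6.28 and 1.01 in H24. SLC25A44 read 0.710, 1.36 and 0.280 in NC, 5.39, 6.16 and 5.51 in H8, and 0.149, 0.154 and 3.11 in H24, so the group in which PMF1 was lowest was the one in which SLC25A44 was highest. SLC25A44 was called higher in H8 than in NC (log2 fold change 2.98, SE 0.54, unadjusted p = 0.000785, adjusted p = 0.143 by edgeR). The sum of both genes was 5.77 ± 2.64 (SD, n = 3) in NC, 6.21 ± 0.293 in H8 and 5.41 ± 1.18 in H24, so the summed locus differed between groups by less than the spread in NC. How StringTie divided fragments between both genes was not tested.

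**Figure D4:**
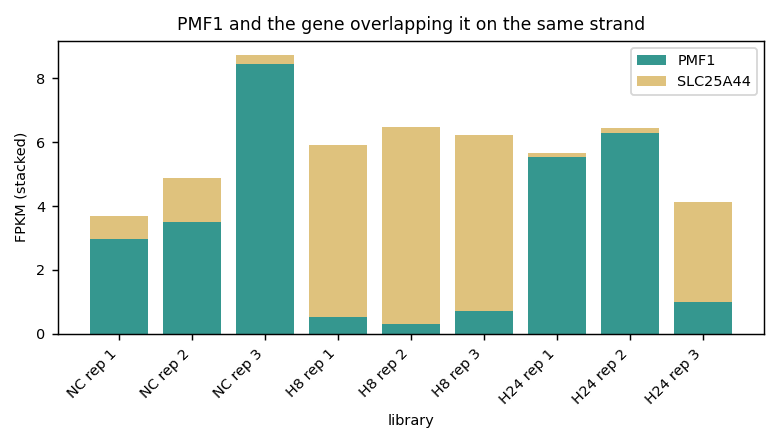
Stacked FPKM of PMF1 and SLC25A44 (vertical axis) in each of the 9 libraries (horizontal axis). PMF1 makes up most of each NC bar and of H24 replicates 1 and 2, SLC25A44 most of the H8 bars and of H24 replicate 3, while the sums in H8 stay between 5.90 and 6.48.

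Across the set, 37 of the 76 genes (48.7%) overlapped another gene, against 41.6% of all rows with an NC mean of at least 1. Of the 37 partners tested in H8 against NC, 1 was called lower and 1, SLC25A44, higher, beside 2.27% and 5.11% of all genes. Where the partner had an NC mean of at least 1, in 31 pairs, it lay below NC in H8 in 25, with a median log2 ratio of −0.23 on FPKM. For comparison, of the 10658 rows with an NC mean of at least 1 that are not small RNAs, 7007 lay below NC in H8. Their median was −0.14 on FPKM, while the median over the 14336 genes tested in H8 against NC was 0.0147 after TMM scaling.

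Small RNA rows made up 10 of the 76 genes (13.2%), against 1.75% of the rows with an NC mean of at least 1. A miRNA precursor is cut from a longer transcript and the mature miRNA carries no poly(A) tail, so poly(A)-selected libraries read the primary transcript or its fragments here and not the mature miRNA. MIR27B and ssc-mir-23b lie 146 bp apart on chromosome 10 (27079955 to 27080051 and 27080197 to 27080276, minus strand) inside C9orf3, an aminopeptidase gene. MIR27B read 12.2, 17.6 and 7.94 FPKM in NC, 2.28, 2.15 and 1.62 in H8, and 12.2, 9.48 and 2.31 in H24. ssc-mir-23b read 11.5, 26.1 and 14.5 in NC, 4.86, 4.03 and 1.18 in H8, and 12.4, 14.5 and 5.71 in H24. In both, H24 replicate 3 was the lowest library outside H8, and for MIR27B it nearly met the H8 range. The surrounding gene C9orf3 had means of 34.3, 29.6 and 28.5 in NC, H8 and H24.

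MIR140, which lies in the ubiquitin ligase gene WWP2, read 0.578, 1.71 and 2.84 FPKM in NC, 0.196, 0.466 and 0.467 in H8, and 1.57, 5.31 and 0.844 in H24. ssc-mir-9788-1 is the name of 2 rows, of which the one in TUBG2 belongs to the set, at 0.766, 1.44 and 1.01 in NC, 0.331, 0.0333 and 0.0406 in H8, and 1.501, 2.998 and 0.743 in H24. MIR1249-1, in KIAA0930, was 2.64-fold below NC. These 3 rows rested on 1 to 6 counts in each H8 library, so single fragments weigh on their values.

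The other miRNA rows were read as genes the rule did not take. Of 25 miRNA rows with an NC mean of at least 1, 5 belong to the set and were low in H8 by choice. Of the 20 others, 17 were below NC in H8 and 10 at most at 0.5 times it, with a median log2 ratio of −1.05. Of the 10658 rows at that NC level that are not small RNAs, 7007 were below NC and 366 at most at 0.5 times it. The median of those rows was −0.14. Among these 20 rows edgeR called 6 lower in H8 than in NC and none higher, beside 2.27% and 5.11% of all genes. The adjusted p of these 6 was 0.187 to 0.335. The 6 are not separate loci. Among them ssc-mir-24-2 (chromosome 10, 27079415 to 27079495) lies beside MIR27B and ssc-mir-23b of the set, and ssc-mir-143 and ssc-mir-145 lie side by side. In H24 against H8 edgeR called none of the 20, with a smallest unadjusted p of 0.0637, and in H24 against NC ssc-mir-1285 was called higher and none lower. The most abundant, ssc-mir-145, a miRNA of smooth muscle, read 414.5, 733.1 and 408.7 FPKM in NC, 40.3, 8.49 and 97.2 in H8, and 522.5, 298.0 and 24.6 in H24 (H8 against NC: log2 fold change −3.33, SE 0.75, unadjusted p = 0.00274, adjusted p = 0.187 by edgeR). Its neighbour ssc-mir-143 read 365.2, 323.1 and 385.2 in NC, 23.3, 7.62 and 89.5 in H8, and 328.0, 122.1 and 13.3 in H24. H24 replicate 3, the library with the low smooth muscle sum, was the reason that neither met the rule.

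Many miRNA rows lie inside a gene, on its strand. Outside the set there were 11 such rows in a gene with an NC mean of at least 1, and 9 of them had a lower H8 to NC ratio than that gene. The median log2 ratio was −0.97 for these 11 rows and −0.07 for the genes around them. The 5 rows of the set lie in such genes too, and their own ratios were fixed by the choice. Over all 16 rows the surrounding genes ranged from −0.48 to 0.28 and none was at 0.5 times NC or less. What set the miRNA rows apart from these genes was not tested.

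**Figure D5:**
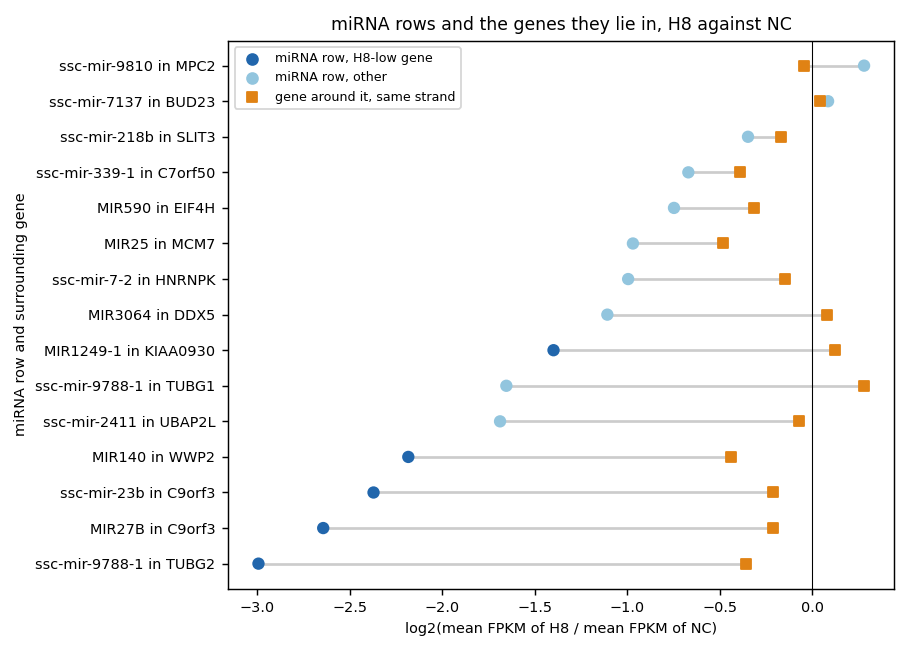
Log2 of the mean H8 over the mean NC FPKM (horizontal axis) for 15 miRNA rows and the gene around each on the same strand (vertical axis), joined by a line. Of the 10 rows outside the set (light circles) 8 lie to the left of their gene (square), the 5 dark circles were chosen for a low ratio, and the genes stay between −0.48 and 0.28. A further row, ssc-mir-9820, had an H8 mean of 0 and is not drawn.

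The 5 other small RNA rows came from 165 rows named by an Rfam family, 3.03% of them. RF00231, a small Cajal body RNA family, on chromosome 7, read 5.57, 7.02 and 7.30 FPKM in NC, 0.871, 1.01 and 0.740 in H8, and 7.82, 2.72 and 9.61 in H24, a 7.60-fold trough. The snoRNA rows RF00405 and RF00190 lie 452 bp apart on chromosome 6 and were 2.96-fold and 2.04-fold below NC. RF00412, a snoRNA family, and 1 of the many RF00026 rows, the U6 spliceosomal RNA, were 2.70-fold and 3.07-fold below NC. RF00412 lies wholly inside RPL23 on the same strand, at means of 208, 274 and 205 FPKM in NC, H8 and H24. That RF00026 row lies wholly inside SDHA on the same strand, at 54.4, 46.4 and 50.2. Both rows rested on 5 to 10 counts in each H8 library, and RF00405 on 1 to 16. The share of fragments from the surrounding genes was not tested. Rows of the U6 family are near-identical copies, and of the 9 other rows of that name 6 were below NC in H8 and 3 above. The Rfam rows as a whole had a median log2 ratio of −0.38.

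Of the remaining named genes, CCDC154 read 1.26, 0.485 and 1.302 FPKM in NC, 0.140, 0.243 and 0.134 in H8, and 0.798, 0.560 and 2.60 in H24. MORN4 read 3.41, 17.0 and 8.36 in NC, 3.32, 2.18 and 2.502 in H8, and 11.04, 8.05 and 12.7 in H24, so NC replicate 1 lay next to H8 replicate 1. GVQW3 read 4.23, 2.95 and 1.94 in NC, 0.832, 0.527 and 0.955 in H8, and 3.26, 1.995 and 2.74 in H24. Genes of meiosis and the germ line, MND1, SYCE2, MSH5 and TDRD10, were at most 2.82-fold below NC, at NC means of 1.12 to 4.90. ANKRD37, the one H8-low gene on a hypoxia and glycolysis list, read 3.56, 4.26 and 3.403 in NC, 1.19, 1.47 and 2.92 in H8, and 5.20, 4.58 and 3.93 in H24. On that list VEGFA and ADM were called higher in H8 than in NC among the 22 other tested genes, beside 5.11% of all genes, and none lower. EPM2AIP1, NRAP, SUGP2, CCDC28A, N4BP2L1 and C12orf76 completed the named genes. The 9 rows with neither symbol nor an enzyme description were at most 4.45-fold below NC.

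The rule used the NC and H24 values only against H8 and did not set the sign of H24 against NC. In edgeR 39 of the 76 genes were higher in H24 and 37 lower, with a median log2 fold change of 0.0182, against 0.00804 over the 14828 genes tested and −0.0642 over the 10848 of these with an NC mean of at least 1, the level that each H8-low gene reached. The median size of the change was 0.23 on the log2 scale, against 0.379 for all genes and 0.305 at that NC level, and 8 genes (10.5%) had groups that did not overlap, against 20.6% and 18.5%. One gene was called higher (1.32% of the set, beside 9.95% of all genes and 5.50% at that NC level) and 1 lower (1.32%, beside 1.52% and 1.41%). In edgeR 4 of the 76 (5.26%) had an unadjusted p under 0.05, beside 13.9% of all genes and 10.1% at that NC level. With an adjusted p under 0.05 edgeR called none of the 76 genes and 0.0% of all. At that limit DESeq2 called 1 of the 76 (6.50% of all genes it tested) and limma on log2(FPKM + 0.1) called none. Both means had to be at least 2 times the H8 mean and each library above H8, so the size of the H24 to NC difference is partly conditioned by the choice of genes and nothing is read from its closeness to 0.

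XG, the Xg blood group antigen gene near the end of chromosome X, was the gene called higher. It read 1.67, 2.29 and 0.823 FPKM in NC, 0.808, 0.725 and 0.613 in H8, and 9.58, 3.77 and 6.73 in H24. The H24 libraries all lay above NC (log2 fold change 2.02, SE 0.51, unadjusted p = 0.00555, adjusted p = 0.160 by edgeR), and H8 replicate 1 was next to NC replicate 3. The gene called lower was ENSSSCG00000040122, which has no symbol, at 4.90, 5.88 and 6.19 in NC, 1.77, 0.826 and 1.22 in H8, and 4.40, 1.86 and 1.89 in H24 (log2 fold change −1.10, SE 0.37, unadjusted p = 0.0209, adjusted p = 0.272 by edgeR). This call was lost without NC replicate 2, NC replicate 3, H24 replicate 2 or H24 replicate 3, and in limma on log2(FPKM + 1), while that of XG held in these fits. CD79A was higher in each H24 library than in each NC library, just under the fold limit (log2 fold change 0.97, SE 0.20, unadjusted p = 0.00187, adjusted p = 0.132 by edgeR). For FCN2 the log2 fold change of 0.86 had an SE of 1.25, and without H24 replicate 3 the log2 ratio of mean FPKM was −2.12 and edgeR called FCN2 lower than in NC.

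By their medians the H8-low genes were shorter and less abundant than other rows. Their median genomic span was 10226.5 bp against 26201.5 bp for the rows with an NC mean of at least 1, and their median NC level was 3.86 FPKM against 6.80. Rows shorter than 300 bp made up 14.5% of the set and 2.24% of those rows. The genes lay on 18 chromosomes, with 6 on chromosome X (7.90% against 3.37%). Chromosome 6 held 10 and chromosome 12 held 9, and 5 pairs lay within 100 kb of each other. These counts were not compared with those of all rows, so no clustering is read from them. Among gene ontology terms with at least 3 H8-low genes, catalytic activity held the largest share, 5 of 280 genes, or 1.79%, with MAN2C1, RCL1, PPM1J and ARSD among them. DNA binding held 8 of 699 genes and sequence-specific binding at RNA polymerase II promoters 4 of 236 (GATA5, CARF, NR1D2 and RAX2), beside 0.701% of all rows at that level.

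Markers of other cells and states also differed between H8 and NC. Of 10 tested adipocyte markers 5 were called lower in H8 than in NC (ADIPOQ, PLIN1, CIDEC, LIPE and THRSP), beside 2.27% of all genes, and none higher, and PLIN1, LIPE and CIDEC are among the genes set aside by name. The protocol in the labels mentions adipose material. The adipocyte sum was 199 to 322 FPKM in NC, 133 to 207 in H8 and 143 to 209 in H24. ADIPOQ, the defining adipokine of fat cells, read 4.44, 14.6 and 6.83 in NC, 0.0954, 0.106 and 0.0789 in H8, and 7.24, 0.0705 and 0.416 in H24 (H8 against NC: log2 fold change −6.39, SE 0.55, adjusted p = 0.0207 by edgeR). Of 27 immediate early genes 12 were called higher in H8 than in NC and none lower, and of 30 heat shock genes 13 were called higher and none lower, beside 5.11% of all genes called higher. Of 10 macrophage markers 6 were called higher in H8. These sums did not follow 1 order of libraries. H8 replicate 2, the lowest H8 library for most H8-low genes, had an adipocyte sum of 207 and a macrophage sum of 34.7, both within the NC range, against macrophage sums of 189 and 97.8 in H8 replicates 1 and 3. Its adipocyte sum came nearly all from other markers of the list. ADIPOQ (0.106), PLIN1 (0.0823), LIPE (1.07) and CIDEC (0.784) each lay below every NC library in H8 replicate 2. The immediate early sum of H8 replicate 3, 3531.7, also lay within the NC range of 1613.9 to 4912.6, while the heat shock sum was 2168.5 to 4296.6 in H8 and 1317.9 to 1529.0 in NC. The part of fat, of these early response genes and of macrophages in the values of the H8-low genes was not tested.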

How the data were processed

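Per the labels and the study's methods, poly(A) RNA from 9 aorta samples was sequenced in pairs on an Illumina HiSeq. The authors aligned reads with HISAT to the pig genome, assembled them with StringTie 1.3.0, and deposited FPKM values and estimated counts for each gene. The submitters' processing notes also list Bowtie 0.12.2 and the build mm8 with no role given. The deposited table also holds the annotation of each gene. Coordinates are as deposited. A gene may share fragments with an overlapping gene, and strand use in counting is not stated.

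The members and gene lists were chosen with earlier results of these data known. Members were found on the deposited FPKM. Estimated counts, which are whole numbers here, were tested with edgeR 4.0.16 (quasi-likelihood, TMM, two-sided, genes averaging 0.1 FPKM or more in the 6 libraries compared), fitted over all genes with Benjamini-Hochberg adjustment. Calls used the study's thresholds, a log2 fold change beyond 1 and unadjusted p under 0.05. The SE given with an edgeR fold change was derived as its absolute value over the square root of the quasi-likelihood F statistic. DESeq2 1.42.0, limma 3.58.1 on log2(FPKM + 0.1) or log2(FPKM + 1), other scalings and filters, and leaving out each library were alternatives. Scripts ran in R 4.3.3 and Python 3.11.15 and were tested on simulated counts. A fold on FPKM uses no pseudocount.

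Genes were named by rule: the 10 named members with the lowest ratio of H8 to the lower other mean, the 10 highest in NC, the 3 on each side of the limit, those called in H24 against NC, members on a list, and ontology terms with at least 3 members. SERPINB1, F8, RAX2, MASP2, the small RNA rows and other members named by role were chosen after their values were seen, as were the role groups. The study's methods name separate, randomly picked pigs for the 24-week groups. For H8 no source used here says so, and p-values with it measure the spread between these samples, which may be technical. No pair of libraries agreed within sampling noise. Gene symbols absent from the table were taken from a gene name list for 7 of 18 members. A few genes that the rule names are not reported here.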

Additional observations from a re-analysis of the deposited data

How the results depend on the processing

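Which genes the rule took depended on scaling and limits. From 76, the count moved to 42 with TMM-scaled FPKM, 43 with median-ratio scaling, 31 with quantile normalization, 16 with a limit of a 3rd, 564 with no fold limit, 180 on means alone and 20 with 1 added to each FPKM. Leaving out 1 library gave 73 to 208 genes. The count was 168 without H8 replicate 1, 208 without H8 replicate 3 and 125 without H24 replicate 3. The reasons for the spread of these counts were not tested. Members called in H24 against NC numbered 2, 1 with limma on log2(FPKM + 1), 0 on edgeR's adjusted p (1 with DESeq2's), and 1 to 4 when a library was left out. It was 1 without NC replicate 3 and 4 without H24 replicate 1. Over all genes, calls in H8 against NC went from 1059 to 618 with a filter at FPKM 1, 343 with limma on log2(FPKM + 1) and 4 on edgeR's adjusted p (616 with DESeq2's), and leaving out a library gave 848 to 1256. Calls in H24 against H8 went from 1519 to 694 with that limma fit and 2 on edgeR's adjusted p (650 with DESeq2's), and ranged from 802 (without H8 replicate 2) to 2087, with 931 without H24 replicate 3. The causes of these moves in calls were not tested. The replicate numbers did not pair the samples (correlations of deviations −0.0626 to 0.10). With the replicate block, 2 members were called in H24 against NC, and 950 and 1275 genes in the other comparisons. For 11 members with fewer than 30 counts in each H8 library, counting error limits the fold.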
